A study of Mus musculus with 12 samples.

Results

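The CpG sites described here lay inside protein-coding exon sequence and far from the promoters of the basic gene annotation. They were chosen by position and coverage alone. A site was 1 cytosine of a CpG dinucleotide on an autosome, read at least 10 times in each of 12 libraries, more than 5000 bp from every annotated transcript start and within a coding sequence (CDS) of the GENCODE vM21 basic annotation of the mm10 mouse genome. In all, 19236 sites met the rule, which was 1.98% of 970775 autosomal sites and a part of the 980547 sites tested with chromosome X included. They came from 14582 distinct CpGs, because the cytosines on the 2 strands were counted apart, and they lay in 2135 genes on 19 chromosomes. All of them matched a CpG in the reference sequence. The median distance to a transcript start was 10737 bp.

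The assay was reduced representation bisulfite sequencing (RRBS), which reads DNA methylation after DNA is cut at CCGG and unmethylated cytosines are converted to be read as T. The animals were about 11 months old, and the tissue was a mixture of dorsal hippocampus and cortex, so that levels are averages over all cell types of the sample. There were 4 wild-type (Wt) mice, labelled 3 females and 1 male, and 8 Tg2576 (Tg) mice, labelled 4 females and 4 males, all ordered from Taconic. Tg2576 mice carry a transgene for human amyloid precursor protein with the Swedish double mutation. A prion protein promoter drives it, so that its expression need not follow that of the mouse gene. The library labelled Wt male went against its label on chromosome X. Its mean X level was 19.9%, against 20.7% to 23.0% in the libraries labelled female and 5.50% to 5.67% in the Tg males, so the genotype counts are also given without it.

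In mammals the body of a transcribed gene is usually methylated, whereas CpG islands, where CpGs are dense, are usually free of methylation even when they lie inside a gene. Coding exons hold more CpGs than introns because the codons of several amino acids contain or adjoin a CpG. Exons far from the promoter therefore hold both kinds of sequence, and RRBS samples the CpG-dense kind more often.

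Coding stretches from 3 genes show the range of sequence behind the measured levels, each read on the strand of its gene from the mm10 reference. Capitals mark the CpGs that were measured. The Exoc3l2 stretch (chr7:19474175-19474414, plus strand) came from a nearly unmethylated block and held 49 CpGs in 240 bases, all of them measured. The Zfp334 stretch (chr2:165381217-165381456, minus strand) came from the block with the highest level and held 14 CpGs. The Unc45a stretch (chr7:80331553-80331792, minus strand) came from the block that varied most between animals and held 16 CpGs.
Exoc3l2: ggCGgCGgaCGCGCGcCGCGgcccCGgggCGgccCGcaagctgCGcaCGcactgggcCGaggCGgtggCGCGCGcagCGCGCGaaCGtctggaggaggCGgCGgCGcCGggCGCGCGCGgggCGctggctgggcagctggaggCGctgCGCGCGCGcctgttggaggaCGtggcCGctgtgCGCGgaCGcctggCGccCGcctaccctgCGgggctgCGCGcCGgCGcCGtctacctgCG
Zfp334: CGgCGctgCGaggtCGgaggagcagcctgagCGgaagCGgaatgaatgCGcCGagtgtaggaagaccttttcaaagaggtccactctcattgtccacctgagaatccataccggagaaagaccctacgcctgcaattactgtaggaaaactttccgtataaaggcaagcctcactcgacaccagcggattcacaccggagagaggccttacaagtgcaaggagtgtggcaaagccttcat
Unc45a: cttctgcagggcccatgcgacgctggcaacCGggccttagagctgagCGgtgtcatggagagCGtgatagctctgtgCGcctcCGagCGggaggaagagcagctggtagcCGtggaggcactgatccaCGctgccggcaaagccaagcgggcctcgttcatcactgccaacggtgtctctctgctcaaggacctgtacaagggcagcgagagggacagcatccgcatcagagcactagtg
The mean level of the measured sites was 0.525% in the Exoc3l2 stretch, 98.2% in the Zfp334 stretch and 35.1% in the Unc45a stretch. The GC content was 83.3%, 53.8% and 62.5%, respectively.

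Windows of 62 bases surround 4 CpGs at which no Tg animal fell within the Wt range, with that CpG in capitals and 30 bases on either side. They are the 4 with the largest differences among the 9 named further on, and each is read on the strand of its gene. They lie at chr15:73050570-73050631 (Trappc9, minus strand), chr12:80721964-80722025 (Plekhd1, plus strand), chr5:24548995-24549056 (4931409K22Rik, minus strand) and chr12:104785367-104785428 (Clmn, minus strand).
Trappc9: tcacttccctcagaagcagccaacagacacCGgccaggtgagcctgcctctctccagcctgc
Plekhd1: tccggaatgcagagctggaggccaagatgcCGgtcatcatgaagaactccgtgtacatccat
4931409K22Rik: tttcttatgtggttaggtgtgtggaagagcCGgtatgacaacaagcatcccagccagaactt
Clmn: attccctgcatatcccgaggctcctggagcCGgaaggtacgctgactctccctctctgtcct
In each of these windows the capital CpG sits in a CCGG, the sequence cut by the enzyme, as do 21.8% of all coding-exon sites.

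Coding-exon CpGs far from promoters were either nearly unmethylated or anywhere above that. The level of a site is the percentage of its reads that were methylated, averaged over the 12 animals. Its median was 16.1%, and 43.5% of the sites were below 10%, 37.9% between 10% and 80%, and 18.7% above 80%. The mean level was 33.1%, against 5.52% over all autosomal sites, most of which lie at promoters. Intron sites equally far from a start averaged 27.7%, and intergenic sites equally far averaged 28.9%. The coding sites were higher than the intron sites in 12 of 12 animals, by 5.40 points ± 0.390 (SD, n = 12), and higher than the intergenic sites in 12 of 12 animals, by 4.17 points ± 0.232 (SD, n = 12).

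**Figure D1:**
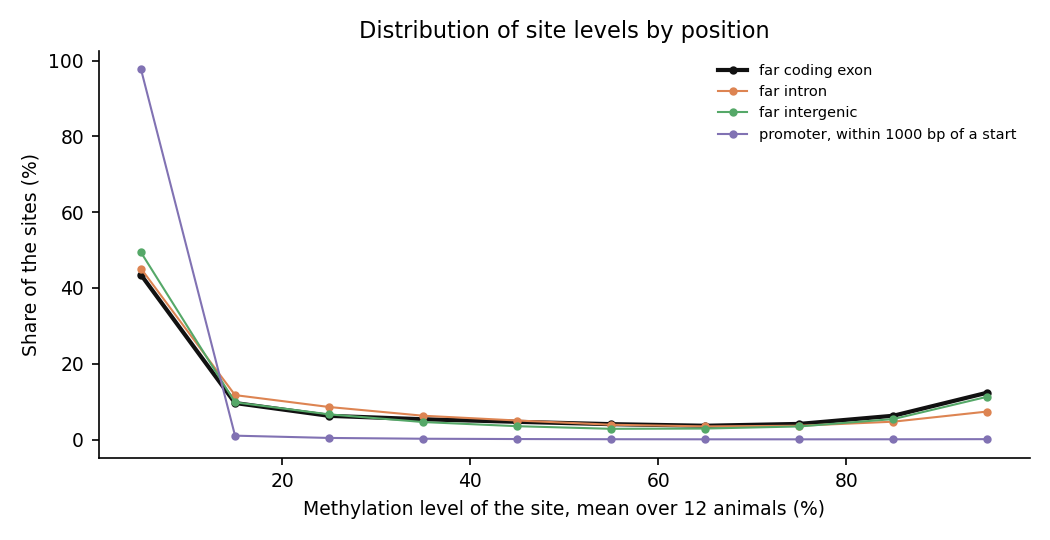
Share of sites (%) in each 10-point class of methylation level (%, mean over 12 animals) for coding exons, introns and intergenic sequence over 5000 bp from a start, and for promoters. Of the coding-exon sites, 43.5% lie in the lowest class, against 97.7% of promoter sites, and the coding-exon line is above the intron line in the highest class.

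Coverage moved with these levels. Coding sites whose smallest coverage among the 12 libraries was 10 to 11 reads averaged 53.6%, and those with at least 20 reads in every library averaged 9.88%. Intron sites followed the same order, from 45.2% to 9.87%. Among the 4466 coding and 9206 intron sites with at least 20 reads, the coding mean was higher in 6 of 12 animals only. The difference of the plain means from introns was therefore not present among the best-covered sites. Intergenic sites with at least 20 reads averaged 9.35%, and the coding mean was higher than theirs in 12 of 12 animals. Density differed too, with a median of 22 CpGs within 200 bp at these coding sites and 14 at the intron sites.

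CpG density set the sites further apart than codon position, place in the gene or distance from a start. Density was counted as CpG dinucleotides within 200 bp. Coding sites with 1 to 6 CpGs averaged 59.9%, those with 13 to 16 averaged 34.2%, and those with 21 or more averaged 8.34%. Across sites, the level fell with density with a Pearson r of -0.592 and a Spearman rho of -0.652, where n was 19236 and neighbouring sites share reads and sequence.

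At equal density, coding sites were more methylated than intron and intergenic sites. At 1 to 6 CpGs the mean was 59.9% in coding exons, 40.2% in introns and 43.2% in intergenic sequence. At 10 to 12 CpGs it was 51.0%, 30.1% and 31.4%, and at 21 or more it was 8.34%, 1.5% and 1.49%. In each of the 6 density classes the coding mean was the higher in 12 of 12 animals. Averaged over the classes with the weights of the coding sites, the difference was 14.9 points ± 0.412 (SD, n = 12) from introns and 13.6 points ± 0.621 (SD, n = 12) from intergenic sequence. With at least 20 reads in every library these fell to 4.73 and 5.05 points, still with 12 of 12 animals higher in each class. With sites matched on smallest coverage as well as density, they were 13.1 and 11.4 points.

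**Figure D2:**
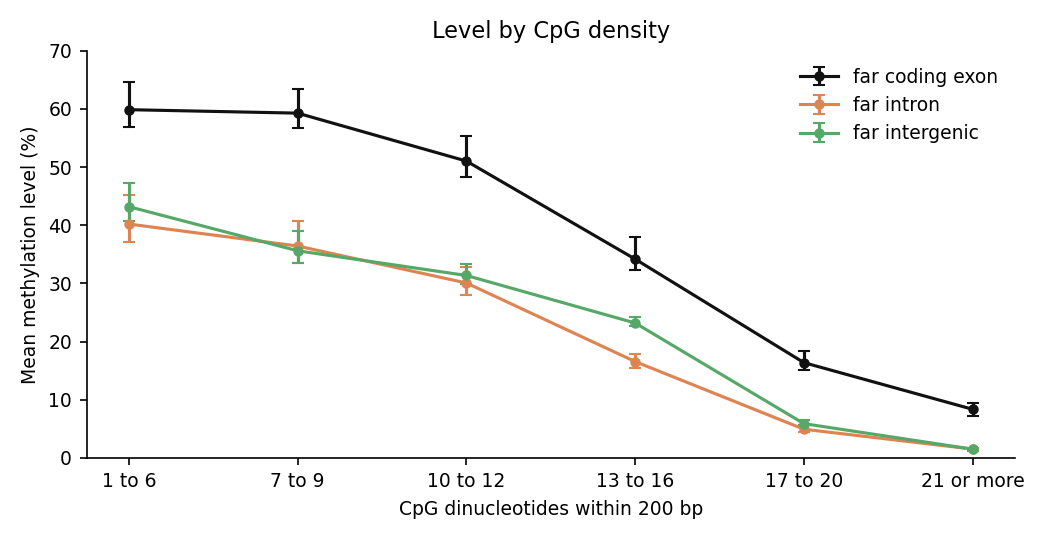
Mean methylation level (%) by number of CpGs within 200 bp for coding-exon, intron and intergenic sites over 5000 bp from a start. Points are means over 12 animals and bars run from the lowest to the highest animal; the coding line lies above the other lines in every class, from 59.9% to 8.34%.

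The place of a CpG in the coding sequence showed smaller differences. CpGs on the first and second codon positions, which include the arginine codons that begin with CG, averaged 39.4% over 6341 sites. CpGs on the last 2 positions averaged 28.5% over 5599 sites, and CpGs spanning 2 codons averaged 31.3% over 7121 sites. Density differed between these groups, with medians of 12, 17 and 16 CpGs within 200 bp. At 1 to 6 CpGs the 3 means were 60.1%, 61.5% and 58.2%, and at 13 to 16 CpGs they were 37.6%, 31.2% and 33.8%. The order of the groups thus changed with density.

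Inner coding exons held the more methylated sites. Their 10502 sites averaged 41.9%, against 22.9% for the 7008 sites in the last coding exon and 21.8% for the 940 sites in the first. The inner sites had a median of 11 CpGs within 200 bp and the last-exon sites a median of 21. At equal density the gap was smaller, with 60.6% against 55.7% at 1 to 6 CpGs and 36.4% against 31.7% at 13 to 16, and it was turned at 21 or more, with 7.90% against 9.38%. First-exon sites averaged 62.9% at 1 to 6 CpGs, over 67 sites, above the inner ones, and were below them in the other 5 density classes. Levels were 23.2% up to 7500 bp from a start, 45.5% between 20000 and 50000 bp and 40.6% beyond 50000 bp, while the median density fell from 19 to 10 and 11 CpGs. At equal density these means were 54.7%, 63.6% and 54.6% at 1 to 6 CpGs and 7.57%, 8.34% and 3.66% at 21 or more. In the comprehensive annotation, which lists more transcripts than the basic one, 3530 of the sites (18.4%) lay within 1000 bp of a start. This share was 20.9% among sites below 10% and 16.1% among sites above 80%.

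A few genes with long CpG-dense coding exons held many of the sites. The median was 4 sites per gene, and the 12 genes with the most sites held 2162. Of these 12, Zfp771, a zinc finger gene, had 203 sites, all below 10%, with a mean of 0.641% and a range over animals of 0.374% to 1.08%. Prdm13, which encodes a transcription factor of neural development, had 214 sites, all below 10%, with a mean of 1.63%. Snx20, which encodes a sorting nexin, had 166 sites, all below 10%, with a mean of 2.38%.

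Zfp697, Gprin1, Garem2, Fam171a2, Otud7a and Sobp had mean levels of 2.51% to 6.18%. Gprin1, an effector of neurite outgrowth, had 160 sites at 3.6%, and Otud7a, a deubiquitinase gene, had 179 sites at 5.43%. The other 3 genes were partly methylated. Foxo6, a forkhead factor expressed in brain, averaged 14.3% over 160 sites, and Dact3, which encodes an inhibitor of Wnt signalling, averaged 24.3% over 164 sites. Zfp316 had the most sites of any gene, 230, at a mean of 30.5%, and of these 36 were below 10% and 10 above 80%. Dense coding sequence was therefore not uniformly unmethylated, since the median density was 30 CpGs within 200 bp in Zfp316 and 33 in Zfp771. Genes whose symbols begin with Zfp, a group looked at after their values were seen, had 920 sites in 39 genes, of which 453 were below 10% and 138 above 80%.

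Levels were also read by coding block, a stretch of overlapping CDS features of 1 gene. There were 479 blocks with at least 8 sites, which held 12744 of the sites. Of these blocks, 181 averaged below 10% and 56 above 80%. The 10 lowest had means of 0.294% to 0.541%. They lay in Dab2ip, Spaca6, Nrg2, Pura, Baiap2l2 (2 blocks), Phf19, Trim14, Exoc3l2 and Wnt10a.

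Exoc3l2 had the most sites of these, 98 in chr7:19473928-19474522, and the level was 0.520%, with a lowest animal of 0.0567% and a highest of 0.958%. Nrg2, which encodes a neuregulin ligand of ErbB receptors, had 84 sites at 0.392%. Pura, whose product binds single-stranded nucleic acid in neurons, had 51 sites at 0.446% in its single coding exon. Wnt10a, which encodes a secreted Wnt ligand, had 12 sites at 0.541% in its last coding exon. Of the 10 blocks, 4 lay within 1000 bp of a start in the comprehensive annotation, those of Dab2ip, Spaca6 and Phf19 and 1 of Baiap2l2.

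The 4 highest blocks had means of 96.9% to 97.9%. They lay in Arid5b and Nav2, which encode a chromatin regulator and a protein of neurite growth, and in the zinc finger genes Zfp619 and Zfp334. The Zfp334 block (chr2:165380085-165381886) had 14 sites. Its Wt levels were 98.6%, 97.3%, 97.3% and 98.0%, and its Tg levels had a lowest value of 95.4%, a median of 98.4% and a highest of 100%. The groups overlapped.

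The blocks that varied most between animals had overlapping Wt and Tg levels. The median SD over 12 animals was 3.94 points in the 479 blocks, whereas it was 23.9 points in Unc45a, whose product is a chaperone of myosin. The Unc45a block (chr7:80331553-80331853) read 73.8% in Wt female 1, 8.96% and 15.5% in Wt females 2 and 3, and 28.7% in the library labelled Wt male. In Tg it ranged from 4.17% through a median of 35.1% to 81.2%, the highest being Tg female 1. Wt and Tg overlapped over nearly the whole range.

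Bcl2l13, which encodes a mitochondrial outer-membrane protein, was alike in pattern, with 14 sites in its last coding exon (chr6:120886678-120887388). Its Wt levels were 73.2%, 33.8%, 39.0% and 19.6%, in the order Wt females 1 to 3 and the library labelled Wt male. Its Tg levels ran from 16.5% through a median of 34.2% to 70.4% in Tg female 1. Itpr3, a calcium release channel of the endoplasmic reticulum, and Cdh20, a cadherin, also had Wt female 1 and Tg female 1 above the other 10 animals. Itpr3 read 76.6% and 82.7% in these 2 animals and 22.2% to 57% in the others. Cdh20 read 63.8% and 57.3% in these 2 animals and 55.5% in the next, Tg male 1.

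In Bach2, a transcriptional repressor gene, and Daglb, which encodes an enzyme making the endocannabinoid 2-arachidonoylglycerol, the order of animals was another. In Bach2 the lowest level was 27.8%, in Tg female 3, and the highest 87.6%, in Tg female 1, with an SD of 19.2 points. In Daglb the lowest was 33.2%, in Tg female 4, and the highest 85.4%, in Tg male 4, and its second highest animal was Wt female 2 at 81.5%.

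Wt female 1 and Tg female 1 stood above the others across the coding-exon sites as a whole. Both were above all other 10 animals at 681 sites, and the next highest of the 66 pairs of libraries reached 362. They were also above the other 10 in 64 of the 479 blocks. At sites where the other 10 averaged 30% to 50%, Wt female 1 was higher by 10.9 points and Tg female 1 by 8.71 points. At sites above 90% in the others, both were lower, at -0.677 and -0.625 points. These classes were set by the mean of the other 10, so a library outside that mean can read less extreme in the end classes. No other library was compared in this way. Median reads per site were 46 and 56 in these libraries and 18 to 50 in the other 10. The part of depth in this was not tested.

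The question of genotype was first asked of the mean level. Wt animals read 36.0%, 32.0%, 32.6% and, in the library labelled Wt male, 31.2%. Tg females read 35.4%, 33.3%, 32.2% and 32.3%, and Tg males 33%, 32.7%, 33.9% and 32.8%. Wt held both the highest and the lowest animal. The Wt mean was 32.9% ± 2.11 (SD, n = 4) and the Tg mean 33.2% ± 1.03 (SD, n = 8), which is a difference of 0.247 points, smaller than the spread between animals. It came to -0.337 points when the library labelled Wt male was left out, and to 1.26 points when Wt female 1 was. In the 7 animals labelled female it was -0.218 points, and with reads pooled over sites it was 1.32 points.

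**Figure D3:**
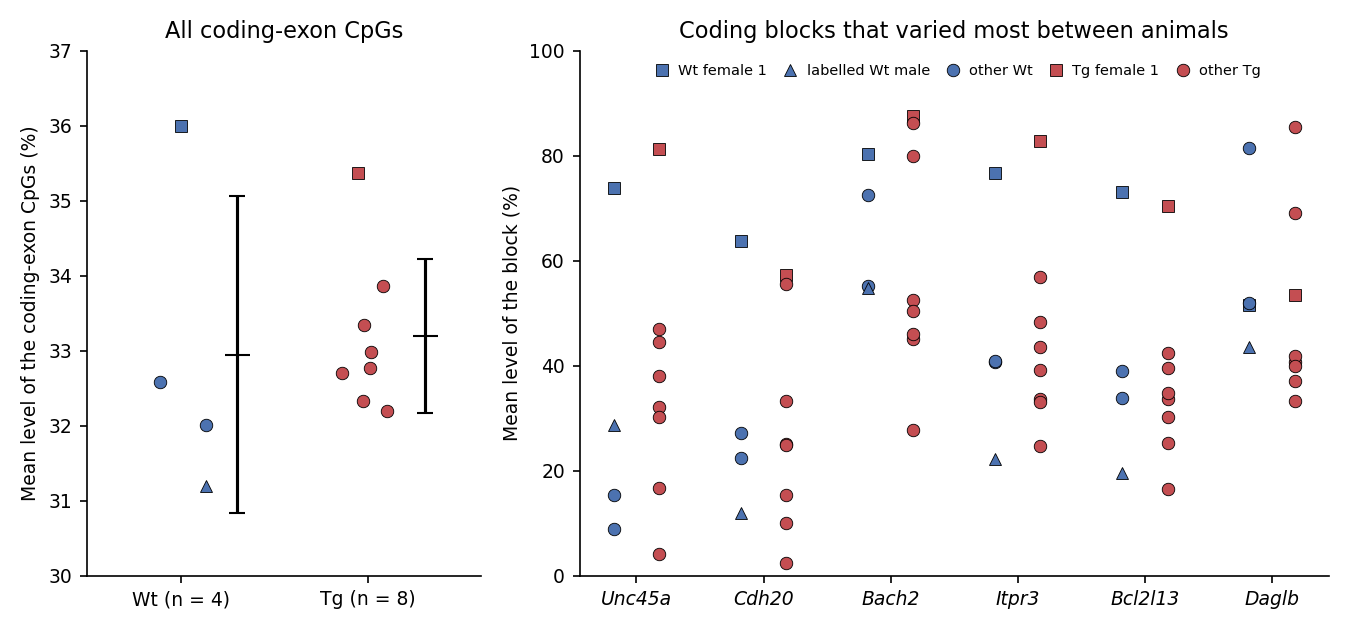
Left, mean methylation level (%) of the 19236 coding-exon sites in each animal, on an axis from 30% to 37%, with group mean and SD. Right, mean level (%) of the 6 coding blocks with the largest SD over animals; each point is 1 animal, and squares mark Wt female 1 and Tg female 1, which are the highest 2 in Unc45a, Cdh20, Itpr3 and Bcl2l13.

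Single sites were tested in 2 models with sex as covariate, fitted on all 980547 sites. The binomial model treats the reads of an animal as independent draws, and its calls, the differentially methylated sites (DMSs), needed an adjusted p of less than 0.1 together with a read-weighted difference of 10 points or more. Of the coding-exon sites, 1594 in 817 genes were DMSs, or 8.29%, against 1.72% of all sites tested. The share was highest at intermediate levels, and at equal levels of 10% or more the coding-exon sites were near the autosomal background. It was 20.9% against 21.4% at levels of 30% to 50%, and 17.7% against 17.6% at 70% to 90%. With the library labelled Wt male left out, these shares were 14.8% against 15.8% and 14.6% against 14.3%. Below 10% the share was 0.490% against 0.0791% with all animals and 0.873% against 0.156% without that library. Levels were not matched within this class, where 763198 of the 876213 autosomal sites lay within 1000 bp of a start. Without the library labelled Wt male all males were Tg. With the sex term, the genotype p then compared only the 3 Wt and 4 Tg animals labelled female. The binomial p-values of that fit are those of the 7 animals labelled female, although its difference threshold still took in the Tg males.

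The overdispersion model, which allows for a spread between animals beyond that of the reads, called 0 sites. At an unadjusted p under 0.05 it had 1460 coding-exon sites, or 7.59%, against 10.9% of all sites, and the smallest adjusted p among the coding-exon sites was 0.422. The limma package on logit levels also called 0, with 1490 sites at an unadjusted p under 0.05, or 7.75%, against 5.19% of all sites. The shares of the 2 models lay on opposite sides of their backgrounds. With the library labelled Wt male left out, the overdispersion model had 1314 sites at p under 0.05, or 6.83%, against 7.18% of all sites. The median dispersion, the ratio of the spread between animals to counting error, was 2.79 at the coding-exon sites and 3.51 at their DMSs. It was 1.14 over all sites and 2.74 at intron sites equally far from a start. The binomial DMSs are thus calls on the reads of these 12 animals. At the coding-exon sites the counts as deposited varied between animals of 1 genotype by more than that model assumes. Whether reads counted more than once added to this ratio was not tested.

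Of the 1594 DMSs, 999 were higher in Tg and 595 lower. These directions were called at 0.928% and 0.793% of all sites. The share higher was 62.7% (Wilson 95% interval 60.3% to 65%, counting error only). That interval takes the sites as independent, although all come from the same 12 animals, so it does not measure the spread between animals. Over all autosomal DMSs the share higher was 62.5%. This share depended on single libraries. Leaving out the library labelled Wt male gave 50.7% of 1264 DMSs, leaving out Tg female 1 gave 53.4% of 1418, and leaving out Wt female 1 gave 73.6% of 2130. In the 7 animals labelled female it was 52.4%. A total of 298 of the DMSs (18.7%) were called with each of the 12 animals left out in turn.

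**Figure D4:**
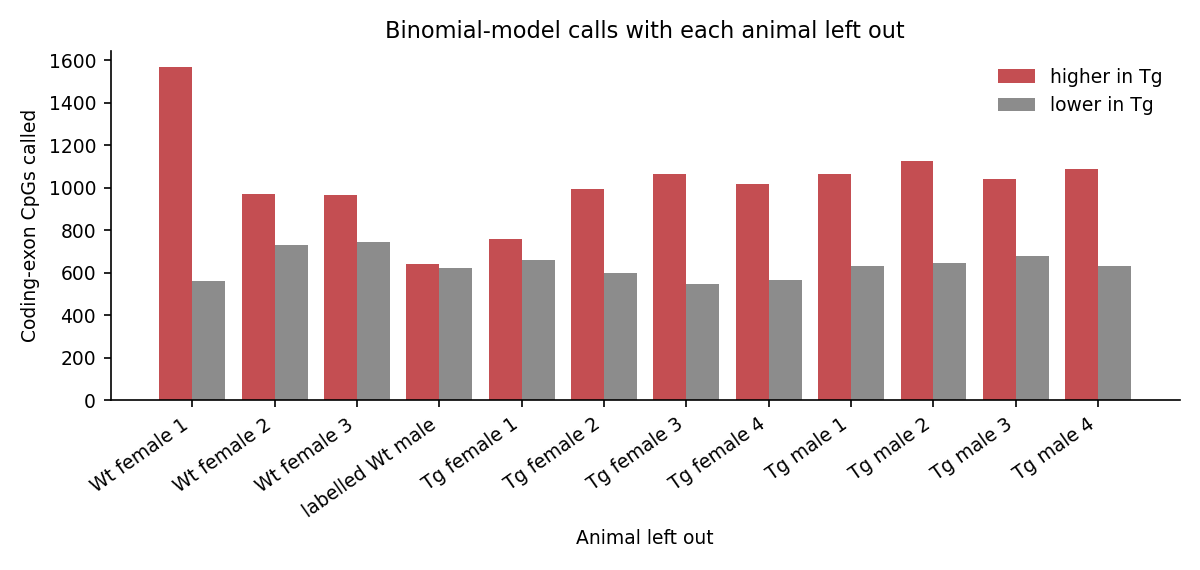
Number of coding-exon CpGs called by the binomial model as higher (red) or lower (grey) in Tg, with each animal left out in turn. The bars are nearly equal, 641 and 623, without the library labelled Wt male, and farthest apart, 1567 and 563, without Wt female 1.

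The deposited counts were mostly even. Coverage was an even number at 67.7% to 82.8% of the coding-exon sites in each library, and so was the methylated count at 81.5% to 89.8% of the partly methylated ones. With all counts halved, 91 of the 1594 DMSs remained past the binomial thresholds and none was added, which was 0.473% of the coding-exon sites, against 0.137% of all sites. Whether reads were counted more than once was not tested.

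The 2 strands of a CpG can be read separately, which gives a second measurement. Both strands were in the set at 4656 CpGs, and their mean levels differed by a median of 1.54 points. Of 528 DMSs whose opposite strand was tested, 295 (55.9%) had a difference of the same sign there, and 56 had a DMS of the same direction there. With the library labelled Wt male left out these were 226 of 428 (52.8%) and 22.

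Wt and Tg levels did not overlap at 28 of the coding-exon sites (0.146%), against 0.0709% of all sites. At intron and intergenic sites equally far from a start the shares were alike, at 0.169% and 0.145%. Of the 28 coding-exon sites, 21 were DMSs, and 16 of these were higher in Tg. With the library labelled Wt male left out, 88 sites (0.457%, against 0.275% of all sites) had separate ranges, of which 60 were DMSs, and 31 of those were higher. From the 10 DMSs of this kind with the smallest overdispersion-model p, at most 1 per 1000 bp, 9 are described here. The adjusted overdispersion-model p was 0.422 at each, and the 9 kept their binomial call without the library labelled Wt male. The genotype p of that fit rests on the animals labelled female alone. Because the 9 were chosen as DMSs with separate ranges, leaving out an animal could not reverse their direction. In the 7 animals labelled female the Sp7 difference was 5.86 points, below the threshold of 10 points. Coverage per animal at these sites was 10 to 96 reads.

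At 3 sites the Tg animals were at or near full methylation. At the Trappc9 site (chr15:73050600), in a gene for a subunit of the TRAPP trafficking complex, Wt levels were 68.4%, 55.6%, 76.9% and 68.4%, and Tg levels were 87.5% at the lowest and 100% at the median. The difference was 27.6 points. At the Clmn site (chr12:104785397), in the gene for the membrane protein calmin, Wt levels were 68.4%, 83.3%, 81.2% and 69.2%, and Tg levels ran from 93.5% through a median of 100%. The difference was 21.3 points, and the unadjusted overdispersion-model p was 0.000284, the smallest of the 9.

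The Fam50b site (chr13:34747262) read 100% in all 8 Tg animals, and 85.7%, 66.7%, 87.5% and 87.5% in Wt. Its opposite strand was tested and differed by 1.92 points. Of its 20 other coding-exon sites within 100 bp, 12 were higher and 8 lower in Tg, and at Trappc9 2 were higher and 1 lower.

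The 2 sites that were lower in Tg were fully or almost fully methylated in Wt. At the Plekhd1 site (chr12:80721995) all 4 Wt animals read 100%, and Tg animals ran from 53.3% through a median of 76.4% to 92.3%, a difference of -26.8 points. Of 6 other coding-exon sites within 100 bp, 5 were higher and 1 lower in Tg, with a median of 2.31 points. At the 4931409K22Rik site (chr5:24549026) Wt levels were 89.7%, 100%, 96.1% and 100%, and Tg levels ran from 41.7% through 77.5% to 83.3%, a difference of -23.8 points.

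The other 4 sites were low to intermediate and higher in Tg. Syne2, which encodes the nuclear envelope protein nesprin-2, read 13.3%, 10.9%, 25.3% and 20% in Wt and 29.4% to 50% in Tg at chr12:75923045. Kif21a, which encodes a kinesin motor protein, read 6.67%, 4.55%, 5.88% and 9.52% in Wt and 12.1% to 43.8% in Tg at chr15:90972709. At these 2 sites, both other coding-exon sites within 100 bp were also higher in Tg.

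Zfp316 read 11.1%, 9.88%, 6.25% and 4.35% in Wt and 16% to 28.6% in Tg at chr5:143253787. Its opposite strand differed by -4.41 points, and of 72 other sites within 100 bp, 42 were higher and 30 lower in Tg. Sp7, which encodes a transcription factor of bone-forming cells, read 3.33% in Wt female 1 and 0% in the other Wt animals, and 5.56% to 23.1% in Tg at chr15:102358313. Its opposite strand differed by 0.862 points. At the Zfp316 and Sp7 sites, as at the Fam50b site, the opposite strand did not differ by 10 points in the same direction. No opposite strand was tested at the named sites in Trappc9, Clmn, Plekhd1, 4931409K22Rik, Syne2 and Kif21a.

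**Figure D5:**
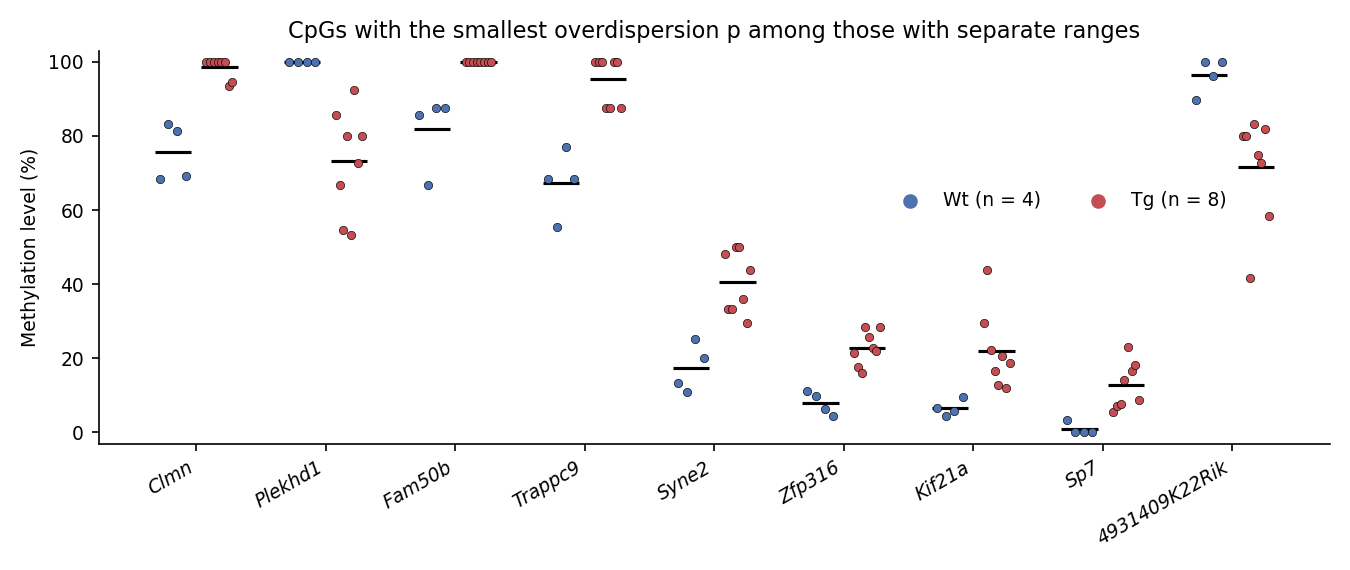
Methylation level (%) in each animal at the 9 named coding-exon CpGs, with Wt in blue (n = 4), Tg in red (n = 8) and group means as lines. Wt and Tg points do not overlap at any of the 9, which was the rule for choosing them; 7 are higher and 2, Plekhd1 and 4931409K22Rik, are lower in Tg.

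Reads were also summed over tiles of 1000 bp. Of 1669 tiles with at least 3 coding-exon sites, 77 were called by the binomial model, or 4.61%, against 2.74% of all 36180 tiles. Of these, 58 were higher and 19 lower in Tg. No tile passed the overdispersion model, for which the count was 0, and 76 tiles had an unadjusted p under 0.05 (4.55%, against 5.77% of all tiles), with a smallest adjusted p of 0.802. Leaving out Wt female 1 raised the count of binomial calls to 164, and leaving out the library labelled Wt male gave 76. Directions over all tiles were not counted, nor was the share over all tiles in these fits. Tiles were not compared at equal level.

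The 5 called tiles with the smallest overdispersion-model p lay in P2ry6, Fhdc1, Kif21a, 2410131K14Rik and Mlec, and all were higher in Tg. P2ry6 encodes a receptor for uridine diphosphate found on microglia, and its tile (chr7:100938001-100939000) held 9 sites. Wt levels were 51.5%, 50%, 59.0% and 45.2%, and Tg levels ran from 57% through a median of 66.6% to 84.6%. The highest Wt animal lay above the lowest 2 Tg animals, and the read-weighted difference was 15.6 points. The Kif21a tile held the named Kif21a site and 2 others, with Wt levels of 20.2%, 7.63%, 15.4% and 15.2% and Tg levels of 22.2% to 41.2%.

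Sites were also counted for lists of genes fitting the study's theme, beside the median level of 16.1% over all coding-exon sites. The share of DMSs over all coding-exon sites was 8.29%, and 6.57% without the library labelled Wt male. The lists differed in level, and so did the share of DMSs over autosomal sites. It was 0.0791% at levels below 10%, 12.1% at 10% to 30% and 21.1% at 50% to 70%. Extracellular matrix and secretion genes had 257 sites in 34 genes and a median level of 57.5%. Their DMSs numbered 33, or 12.8%, of which 24 were higher and 9 lower in Tg. Without the library labelled Wt male there were 34 (13.2%), 22 higher and 12 lower. The collagen genes Col4a1 and Col4a2, which encode chains of basement membrane collagen, averaged 72.6% and 72.2%. Ncan, which encodes the brain proteoglycan neurocan, had 52 sites at 28.0%, with 5 DMSs.

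Synaptic and neuronal signalling genes had 645 sites in 29 genes, a median of 13.2% and 56 DMSs (8.68%), 33 higher and 23 lower. Without the library labelled Wt male there were 44 (6.82%), of which 17 were higher and 27 lower, so that the balance of directions turned. Cacna1a, the pore subunit gene of P/Q-type calcium channels, had 140 sites at 11.0% and 14 DMSs. The postsynaptic scaffold genes Shank1 and Shank3 had 133 and 62 sites, at 11.0% and 25%. Developmental transcription factor genes had 239 sites in 17 genes, a median of 6.02% and 8 DMSs (3.35%), 3 higher and 5 lower. Most of these sites lay in Tbx3, at a level of 7.20%, and Tbx2, at 4.29%. Chromatin genes had 77 sites in 17 genes, a median of 57% and 10 DMSs, 8 higher and 2 lower. Without the library labelled Wt male the developmental list had 11 DMSs (4.60%), 6 higher and 5 lower. The chromatin list then had 7 (9.09%), 5 higher and 2 lower.

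Cell type markers were thinly covered. Neuron markers had 56 sites, all in the RNA-binding protein gene Celf4, with a median of 3.11% and 0 DMSs. Oligodendrocyte markers had 56 sites in 6 genes and a median of 9.69%. Their 11 DMSs, 7 higher and 4 lower, were 19.6% of the sites, against 8.29% of all coding-exon sites. Sox10, which encodes a transcription factor of the oligodendrocyte lineage, held 7 sites with 3 DMSs, all higher in Tg, and Cnp, which encodes a myelin enzyme, held 3 sites, all DMSs and all lower in Tg. Leaving out the library labelled Wt male gave 7 DMSs on this list (12.5%, against 6.57% of all coding-exon sites), 5 higher and 2 lower. Astrocyte markers had 7 sites in 3 genes, a median of 76.7% and 0 DMSs. Microglia markers had 4 sites in 3 genes and a median of 58.2%, with 2 DMSs, which were not called without the library labelled Wt male. The makeup of the tissue by cell type could not be read from so few sites, and its part in the levels was not tested.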

How the data were processed

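DNA from 12 brains was sequenced in paired-end mode by RRBS. The authors aligned the reads to mm10 with Bismark and deposited, through methylKit, raw counts per CpG cytosine, namely coverage, methylated and unmethylated reads, with strands apart, 1 library per animal and a minimum of 10 reads. Coverage summed over all listed CpG cytosines was 33619981 to 131446104 per library. In this sum a read counts once for each cytosine it covers, so it is not a number of reads. Median coverage of the coding-exon sites was 18 to 56 reads. Intervals cover counting error only.

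Sites were joined over the 12 libraries, leaving out 11 positions listed more than once. Counts were equal at no more than 4.06% of sites in any pair of libraries. Each site was tested by logistic regression on genotype and sex (binomial model, likelihood-ratio test) and with a dispersion per site of at least 1 (overdispersion model, F test), in Python 3.11.15 with numpy 2.4.6 and scipy 1.17.1, and with Benjamini-Hochberg adjustment over all 980547 sites. Both models were tested on simulated data. Of this, methylKit, the sex term and both thresholds are named in the study's methods, and the form of the test was chosen here. limma 3.58.1 in R 4.3.3 was an alternative, with a pseudocount of 1 read on each side.

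The members and lists were chosen with earlier results of these data known. Named sites were the 10 DMSs with separate Wt and Tg ranges and the smallest overdispersion-model p, at most 1 per 1000 bp, of which 1 is not reported here. Named tiles were the 5 called ones with the smallest such p, named genes the 12 with the most sites, and named blocks, of at least 8 sites, the 10 lowest, the 4 highest and the 6 with the largest SD. Sequences are from the mm10 reference genome. Nothing in the labels says more of the animals than sex, age and genotype, and replicate numbers only name an animal.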

Additional observations from a re-analysis of the deposited data

Results flagged for a closer look

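A search for an animal far from the others of its genotype covered 37 measures in 72 groups of animals, of which chance gives about 1 in 20, and found 6. That rate need not hold here. Most measures were picked for extreme levels, large spread or separate ranges, and in several groups some animals read 0%. The share of coding-exon sites above 80% was 20.3% in Tg female 1, against 18.4% to 19% in the other 7 Tg animals. The nearly unmethylated blocks of Dab2ip, Trim14 and Baiap2l2 each had 1 animal apart. Tg female 2 read 1.82% in Dab2ip, against 0% to 0.624% in the other Tg animals. Tg female 4, the library with the lowest coverage, read 1.69% in Trim14, against 0.0549% to 0.609%. Wt female 3 read 1.31% in Baiap2l2, against 0% to 0.209% in the other Wt animals. At the named Fam50b site Wt female 2 read 66.7%, against 85.7% to 87.5% in the other Wt animals, and at the named Sp7 site Wt female 1 read 3.33%, against 0% in the others.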

How the results depend on the processing

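The 1594 binomial DMSs became 146 with at least 20 reads in every library (4466 sites), 63 with a difference of at least 25 points, 1034 beyond 10000 bp and 91 with halved counts, and were within 1.5 times under the other alternatives. With animals left out in turn they were 1264 to 2130, while the share of all sites called ran from 1.35% to 2.24%. The share over all sites was not counted at 20 reads or at 25 points. The overdispersion model called 0 sites under every alternative run. The share of DMSs higher in Tg was 50.7% to 73.6% with animals left out in turn, 52.4% in the 7 animals labelled female, 65.9% with halved counts and 65.9% without Wt female 1 and Tg female 1, the alternatives for this share being added after seeing the data, as were the halved counts and all matched-density alternatives. The Tg minus Wt mean difference of 0.247 points was 1.32 with reads pooled over sites and -0.218 in the 7 animals labelled female. Sites with separate ranges numbered 28, and 3 at 20 reads, 560 in the 7 animals labelled female, 52 beyond 2000 bp, 16 beyond 10000 bp and 41 to 124 with animals left out, where fewer animals are compared. The mean level of 33.1% was 9.88% at 20 reads, 26.0% beyond 2000 bp, 40.7% beyond 10000 bp and 25.5% with reads pooled over sites. Leaving out the library labelled Wt male, also added after seeing the data, changed the DMSs of the oligodendrocyte markers from 11 to 7 and of the microglia markers from 2 to 0, and left those of the other lists within 1.5 times. Tiles called were 76 to 164 with animals left out, where the share over all tiles was not counted. The matched-density differences from intron and intergenic sites were 4.73 and 5.05 points at 20 reads, 11.9 and 10.2 beyond 2000 bp, 17.7 and 15 beyond 10000 bp, and 13.1 and 11.4 when matched on smallest coverage too. The cause of these changes was not tested. Of 127 values at the named sites under alternatives, 123 kept their direction and call, 0 reversed, and 4, all at Sp7, fell below 10 points. Because these sites were chosen for separate Wt and Tg ranges, leaving out animals could not reverse a direction. With at least 20 reads only the Kif21a site had a value, and halved counts were not run at the named sites. No paired analysis was possible because the labels give no replicate numbers that the genotypes share.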
